A study of Mus musculus with 16 samples.

Results

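The genes described here are the enzymes and partners that write, copy, oxidise and read methylated cytosine: Dnmt1, Uhrf1, Uhrf2, Dnmt3a, Dnmt3b, Tet1, Tet2, Tet3 and Mbd3. They were found by mouse gene symbol, each matched 1 gene identifier, and they are 9 of the 53379 genes counted in each library. RNA sequencing was carried out on cells sorted from the neocortex of mice at postnatal day 4, from the CD1 strain per the labels and from a mixed C57BL/6 and CD1 background per the methods of the study. The study sorted these cells to assess astrocytes that lack Polycomb repressive complex 2 (PRC2), and compared markers with the neurons to check purity. The members are described across the 4 groups of bulk libraries that this design gives. Individual animals were the replicates. The labels do not say whether astrocytes and neurons of a genotype came from the same animal. The tests between cell types take the libraries as independent.

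The 4 groups shared most of their genetics. All animals carried the mosaic analysis with double markers cassettes on chromosome 7 (MADM7-GT/TG), in which recombination between homologous chromosomes labels sparse cells and ties their colour to their genotype. All carried Emx1-Cre, which drives that recombination in the dorsal telencephalic lineage, and XGFAP-lacZ, a lacZ transgene under the human GFAP promoter that marks astrocytes. All sorted cells were green (GFP+), and in this scheme a green cell, wild type or mutant, has a paternal origin for the pair of its chromosome 7 homologues. Eed+/+ astrocytes (5 libraries) and Eed+/+ neurons (2 libraries) came from animals wild type for Eed, a core subunit of PRC2. Eed-/- astrocytes (5 libraries) and Eed-/- neurons (3 libraries) came from mosaic animals that were otherwise heterozygous for Eed, so the mutant cells were surrounded mostly by Eed+/- cells. Astrocytes were the GFP+/lacZ+ and neurons the GFP+/lacZ- cells, so the neuron gate is defined by the absence of a marker and could hold any other green cell without lacZ. The labels do not state the sex of each animal. The labels of 1 further library name both cell types, and it entered no comparison.

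DNA methylation in mammals sits mostly on cytosine followed by guanine (CpG). DNMT3A and DNMT3B place new methyl groups, DNMT1 copies them onto the daughter strand after replication with the help of UHRF1, which binds hemimethylated DNA, and the TET enzymes oxidise 5-methylcytosine as a step toward its removal. In the postnatal brain DNMT3A also methylates cytosine outside CpG in neurons, and methylated cytosine and the H3K27me3 mark laid by PRC2 tend to occupy different CpG-rich regions.

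The members lie on 8 chromosomes (GENCODE release 21, GRCm38), and all 9 are annotated as protein coding. Dnmt1 lies on chromosome 9 from 20907209 to 20959888 (minus strand), Uhrf1 on chromosome 17 from 56303321 to 56323486 (plus) and Uhrf2 on chromosome 19 from 30030513 to 30093722 (plus). Dnmt3a lies on chromosome 12 from 3806007 to 3914443 (plus) and Dnmt3b on chromosome 2 from 153649450 to 153687730 (plus). Tet1 lies on chromosome 10 from 62804570 to 62908996, Tet2 on chromosome 3 from 133463679 to 133545139 and Tet3 on chromosome 6 from 83362373 to 83459084, all on the minus strand. Mbd3 lies on chromosome 10 from 80392539 to 80399550 (minus). None lies on chromosome 7, which carried the MADM cassettes. Exons of Dnmt3a overlap the antisense gene Dnmt3aos and exons of Tet2 the antisense gene Gm42567. The counting did not use strand, so reads of these pairs cannot be assigned and both values are uncertain to that extent. Uhrf1, Uhrf2 and Mbd3 overlap no other annotated gene.

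The promoters of the members were richer in CpG, the substrate of the machinery, than those of most genes. In the 250 bases before the most upstream RefSeq start (GRCm38.p6), the members held a median of 17 CpG and all 27025 genes with such a sequence a median of 6. No limit to protein-coding genes was set for that background, whereas all 9 members are protein coding. The ratio of observed to expected CpG was at least 0.6 in 6 of the 9 members and in 34.5% of all genes. Tet2 had the most CpG of the members (51, more than 99.9% of all genes) and the most upstream start of Dnmt1 the fewest (2). Dnmt1 has other RefSeq starts, and the third held 26 CpG, with 166 of those 250 bases inside annotated exons of Dnmt1. Uhrf1 held 10 CpG before its upstream start and 30 before its second. The 250 bases before the start are printed 5′ to 3′ on the strand of the gene, CpG in capitals, for these extremes, for the second start of Uhrf1, whose reads are shown apart, and for Dnmt3b, the member with the fewest reads. They lie at chr9:20959889-20960138 (minus), chr3:133544391-133544640 (minus), chr17:56304063-56304312 (plus) and chr2:153649199-153649448 (plus).
Dnmt1, most upstream start: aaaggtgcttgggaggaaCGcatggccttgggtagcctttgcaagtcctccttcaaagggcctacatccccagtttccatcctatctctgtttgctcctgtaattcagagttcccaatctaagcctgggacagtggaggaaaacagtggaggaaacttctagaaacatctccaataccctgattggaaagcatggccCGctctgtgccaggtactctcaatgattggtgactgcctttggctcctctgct
Tet2: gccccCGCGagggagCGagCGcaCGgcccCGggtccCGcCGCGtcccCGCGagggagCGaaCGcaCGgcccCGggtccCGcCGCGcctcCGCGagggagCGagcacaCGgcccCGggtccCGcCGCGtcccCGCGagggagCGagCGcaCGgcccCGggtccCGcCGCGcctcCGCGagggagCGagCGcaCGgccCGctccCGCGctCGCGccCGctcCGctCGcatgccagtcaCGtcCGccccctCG
Uhrf1, second start: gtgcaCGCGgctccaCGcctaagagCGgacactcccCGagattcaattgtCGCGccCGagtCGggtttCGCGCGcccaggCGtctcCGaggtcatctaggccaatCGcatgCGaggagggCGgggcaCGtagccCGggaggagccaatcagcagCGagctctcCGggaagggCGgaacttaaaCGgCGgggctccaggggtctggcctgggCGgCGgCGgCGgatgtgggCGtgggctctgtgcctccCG
Dnmt3b: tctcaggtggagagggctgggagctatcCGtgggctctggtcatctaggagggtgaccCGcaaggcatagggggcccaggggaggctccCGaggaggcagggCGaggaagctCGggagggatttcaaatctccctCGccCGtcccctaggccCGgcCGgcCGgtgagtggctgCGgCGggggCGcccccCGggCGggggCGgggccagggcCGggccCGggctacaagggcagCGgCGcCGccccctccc

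The libraries differed widely in depth and in how well they aligned. Counts summed over genes ranged from 211736 to 3178529 over the 15 libraries with a group, and 26.1% to 76.6% of reads aligned uniquely. Libraries with at least 60% and at least 1000000 uniquely aligned reads are called within the limits: 10 of 15 were, among them 4 Eed+/+ and 2 Eed-/- astrocyte, 1 Eed+/+ neuron and 3 Eed-/- neuron libraries. Outside lay Eed+/+ astrocyte replicate 3, Eed-/- astrocyte replicates 1, 3 and 4 and Eed+/+ neuron replicate 2. The limits and the genotype are thus partly confounded in both cell types. Within the limits each neuron genotype difference rests on 1 Eed+/+ library, whose spread cannot be measured. Levels are given as CPM, counts scaled to library size and TMM factor. Astrocyte markers summed to 13327 to 36461 CPM in astrocytes within the limits and to 8445 to 12921 in neurons within the limits, whereas an Eed-/- astrocyte library outside them held 1685. Neuron markers overlapped between the sorted cell types (255 to 2878 CPM in astrocytes and 1603 to 2769 in neurons, within the limits), and neurons also held 2758 to 4046 CPM of oligodendrocyte lineage markers there. Proliferation genes summed to 72.7 to 1114 CPM in astrocytes and 933 to 1537 in neurons within the limits. Microglia markers reached 10578 CPM and erythroid markers 7801 CPM in single Eed-/- astrocyte libraries outside the limits, against at most 525 and 27.9 CPM within them. Eed itself had 88, 204, 2, 85 and 41 reads in Eed+/+ and 0, 26, 0, 0 and 14 in Eed-/- astrocytes, and 121 and 26 in Eed+/+ against 21, 74 and 53 in Eed-/- neurons. Reads from Eed exons that the deletion keeps are among these counts, so the check of genotype is partial. In such bulk samples, fewer cells of a type and less RNA per cell cannot be told apart.

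Read per kilobase of exon, Mbd3 was the most abundant member apart from Uhrf1 and Dnmt3b the least. Within the limits the mean level per kilobase in astrocytes was 92.1 CPM for Mbd3, 12.3 for Dnmt3a, 8.51 for Uhrf2, 6.07 for Tet3, 5.93 for Dnmt1, 3.85 for Tet1, 2.16 for Tet2 and 0.642 for Dnmt3b (n = 6). In neurons the order was Mbd3 (83.4 CPM per kilobase), Dnmt1 (13.6), Dnmt3a (9.87), Uhrf2 (8.73), Tet3 (7.63), Tet1 (3.33), Tet2 (3.00) and Dnmt3b (1.70; n = 4). Mbd3 lay above the next member in every library within the limits (6 of 6 and 4 of 4) with no overlap, and all other neighbours in both orders overlapped. The exon lengths take every annotated exon of a gene together, from 1.99 kilobases for Mbd3 to 16.9 for Tet2, so a gene with a long and unused exon is understated. Uhrf1, whose reads fell almost all on 1 strand, is given apart.

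**Figure D1:**
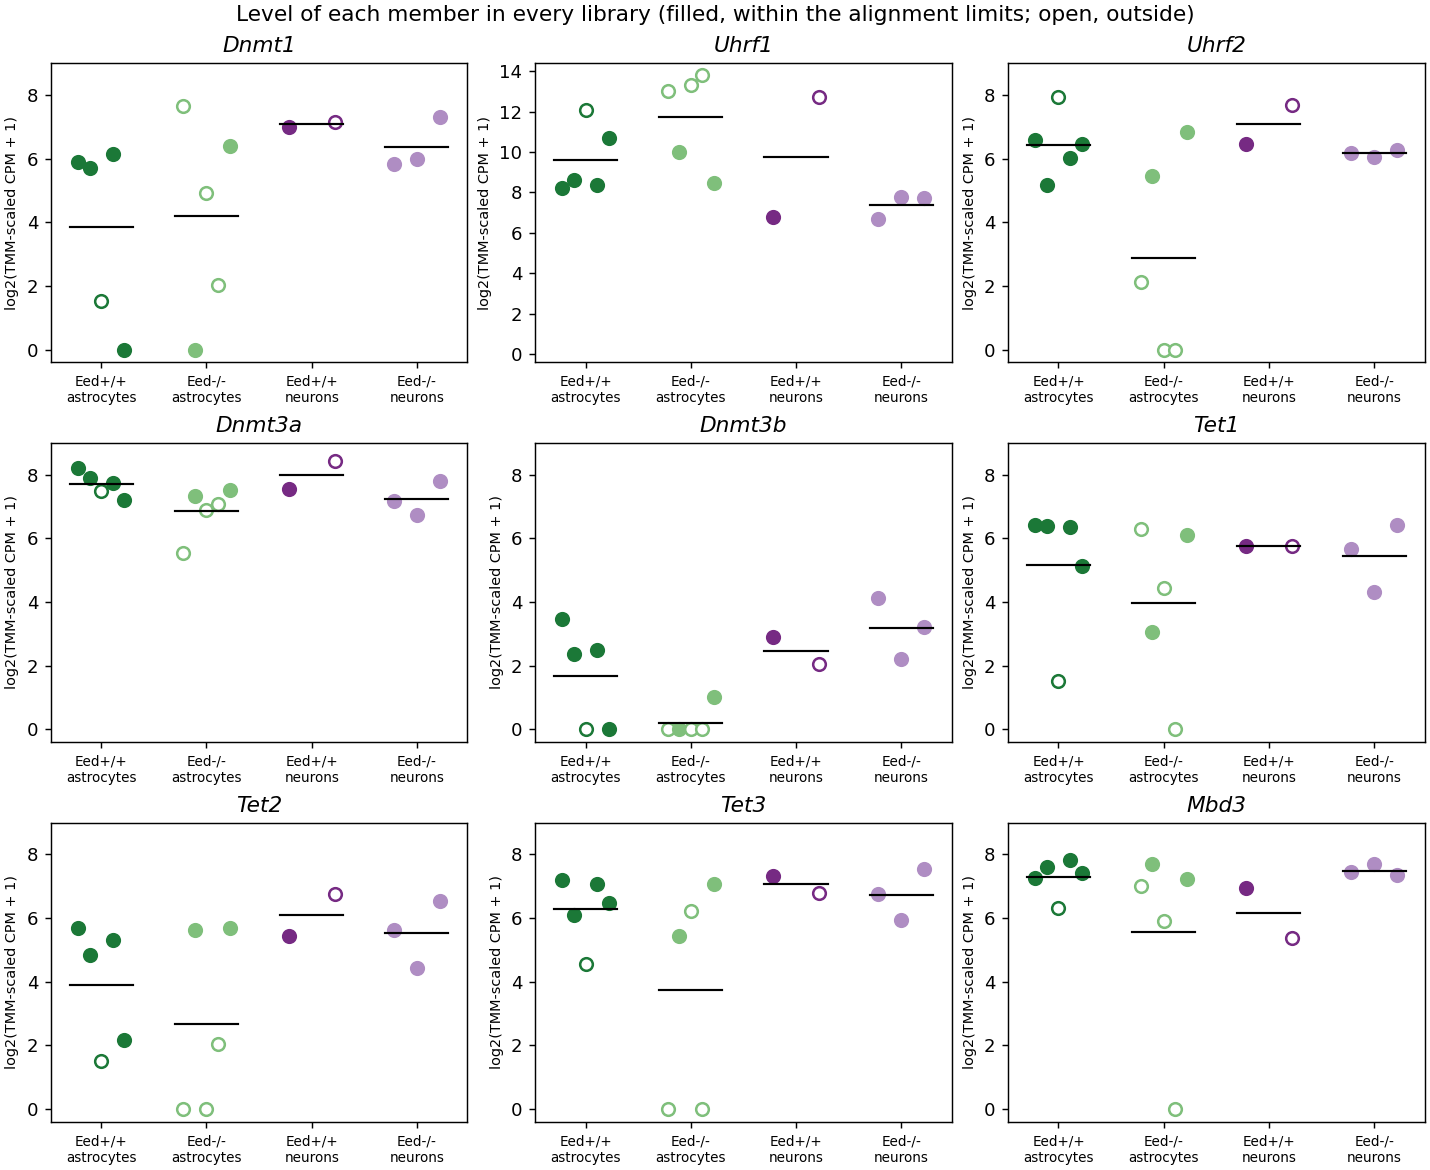
Level of each member in every library, as log2 of TMM-scaled CPM plus 1 (vertical axes), by group (horizontal axes). Points are libraries, filled within the alignment limits and open outside, and bars are group means of the log2 values; Dnmt3a is read in every library, while Dnmt1, Uhrf2 and the 3 TET genes are at 0 in 1 or 2 astrocyte libraries, Mbd3 in 1 and Dnmt3b in 6 of 10, and Uhrf1 is highest in the open points.

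Among the maintenance genes, Dnmt1 was read in every neuron library and in 8 of 10 astrocyte libraries. Dnmt1, which copies methylation after replication, stood at 58.6, 50.8, 1.86, 70.1 and 0 CPM in replicates 1 to 5 of Eed+/+ astrocytes, and at 201, 0, 29.5, 3.09 and 82.9 CPM in those of Eed-/- astrocytes. It stood at 127 and 140 CPM in Eed+/+ neurons and at 55.5, 62.1 and 157 CPM in Eed-/- neurons. Both astrocyte genotypes thus held 1 library with none, and the genotypes overlapped in both cell types. Against a range of 55.5 to 157 CPM in neurons, 2 Eed+/+ astrocyte libraries and 1 Eed-/- library lay inside it, and the highest Eed-/- library lay above it. Of the libraries without a single Dnmt1 read, Eed+/+ replicate 5 and Eed-/- replicate 2 were within the limits, with 1621352 and 1890462 gene reads, where 3 counts would have been 2.08 and 1.99 CPM. The mean of Eed+/+ astrocytes was 36.3 ± 33.0 CPM (SD, n = 5) and that of Eed-/- astrocytes 63.4 ± 84.0 (SD, n = 5), while neurons averaged 134 ± 9.39 (Eed+/+, SD, n = 2) and 91.5 ± 56.6 (Eed-/-, SD, n = 3). The fitted log2 difference between Eed-/- and Eed+/+ cells was 0.93 (SE 1.50, 95% interval -2.01 to 3.86) in astrocytes and -0.67 (SE 0.66, -2.08 to 0.75) in neurons. Neither passed, with adjusted p of 1.00 and 0.783 (edgeR's quasi-likelihood test with Benjamini-Hochberg adjustment over all genes tested). In astrocytes the sign turned within the limits (-0.12).

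Uhrf2, a relative of Uhrf1 that binds modified cytosine, was at or below its floor of 3 counts in the poorly aligned Eed-/- astrocytes and was read in all other libraries. Its level was 95.8, 34.7, 245, 63.2 and 87.3 CPM in Eed+/+ and 3.38, 43.2, 0, 0 and 114 CPM in Eed-/- astrocytes. The 3 low Eed-/- libraries were the 3 outside the limits, where 3 counts would have been 5.08, 8.86 and 9.27 CPM. Eed+/+ neurons stood at 86.9 and 206 CPM and Eed-/- neurons at 72.0, 65.7 and 75.5 CPM, so neurons of the 2 genotypes did not overlap, Eed+/+ being the higher. Such a lack of overlap was common in this comparison, at 23.3% of the genes tested, and an exact permutation test of 3 against 2 libraries gave a two-sided p of 0.2, the smallest it allows. The fitted log2 difference of Uhrf2 was -1.70 (SE 1.47, -4.58 to 1.18) in astrocytes and -1.17 (SE 0.63, -2.54 to 0.19) in neurons, with adjusted p of 1.00 and 0.721. The sign in astrocytes turned within the limits (0.18). Without Eed+/+ neuron replicate 1, the neuron value was -1.68 with an adjusted p of 0.0498 by the same edgeR test, beside 2601 calls over all genes against 0 with it, the lone Eed+/+ library being assumed to vary like the Eed-/- libraries. Without Eed+/+ neuron replicate 2, the one outside the limits, it was -0.32 (adjusted p 1.00).

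Among the de novo enzymes, Dnmt3a had at least 27 reads in every library and Dnmt3b was near the floor. Dnmt3a stood at 293, 235, 176, 213 and 145 CPM in Eed+/+ astrocytes. It stood at 45.7, 159, 118, 133 and 183 CPM in Eed-/- astrocytes, at 185 and 343 CPM in Eed+/+ neurons and at 145, 105 and 222 CPM in Eed-/- neurons. In astrocytes it averaged 213 ± 56.6 CPM (Eed+/+, SD, n = 5) and 128 ± 52.2 (Eed-/-, SD, n = 5), and in neurons 264 ± 112 (Eed+/+, SD, n = 2) and 157 ± 59.5 (Eed-/-, SD, n = 3). The Eed-/- mean was the lower in both cell types, and the libraries overlapped in both. The fitted log2 difference was -0.63 (SE 1.27, -3.11 to 1.85) in astrocytes, where the median of all genes tested was -0.54, and -0.89 (SE 0.64, -2.27 to 0.50) in neurons, where that median was 0.15. The adjusted p of the edgeR test was 1.00 and 0.761. Within the limits the differences were -0.37 and -0.27. An exact permutation test of the astrocyte levels gave an unadjusted two-sided p of 0.0397, of 0.0952 without TMM factors and of 0.4 within the limits, as 1 of such tests of 9 members in 3 comparisons.

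Dnmt3b, which acts mainly in early embryonic development, gave 19, 11, 0, 10 and 0 reads from Eed+/+ astrocytes and 0, 0, 0, 0 and 1 from Eed-/- astrocytes. Neurons gave 12 and 1 reads (Eed+/+) and 21, 7 and 13 reads (Eed-/-). All neuron libraries thus held at least 1 read, and 4 of 5 Eed-/- astrocyte libraries held none. In astrocytes it did not pass the filter on low counts and was the only member not tested there. Its CPM averaged 3.73 ± 4.11 (Eed+/+, SD, n = 5) and 0.202 ± 0.452 (Eed-/-, SD, n = 5) there, and an exact permutation test gave a two-sided p of 0.167. At 3 counts the Eed-/- libraries would have shown 1.99 to 9.27 CPM, and the Eed+/+ mean was below that floor in the 3 outside the limits. In neurons the log2 difference was 0.72 (SE 1.10, -1.66 to 3.10, adjusted p 0.836 by edgeR).

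The 3 TET enzymes were all read in every neuron library and each was at 0 in 1 or 2 poorly aligned astrocyte libraries. Tet3, the most abundant of them per kilobase, stood at 144, 67.9, 22.3, 132 and 87.3 CPM in Eed+/+ and at 0, 42.5, 73.8, 0 and 134 CPM in Eed-/- astrocytes, and at 159 and 109 CPM in Eed+/+ and 106, 60.6 and 183 CPM in Eed-/- neurons. Tet1 stood at 84.8, 81.8, 1.86, 81.6 and 33.9 CPM in Eed+/+ and at 77.8, 7.31, 20.7, 0 and 67.8 CPM in Eed-/- astrocytes, and at 53.7 and 53.1 CPM in Eed+/+ and 49.3, 19.0 and 83.7 CPM in Eed-/- neurons. Tet2, which lacks the CXXC DNA-binding domain of the other two, stood at 50.3, 27.6, 1.86, 38.7 and 3.46 CPM in Eed+/+ and at 0, 47.9, 0, 3.09 and 50.6 CPM in Eed-/- astrocytes, and at 42.4 and 106 CPM in Eed+/+ and 48.5, 20.5 and 91.3 CPM in Eed-/- neurons. For each of the 3 genes the genotypes overlapped in both cell types, and the Eed-/- libraries at 0 lay outside the limits. In astrocytes the log2 differences were -0.60 (SE 1.51) for Tet1, -0.20 (SE 1.59) for Tet2 and -0.79 (SE 1.44) for Tet3. In neurons they were -0.20 (SE 0.75), -0.60 (SE 0.78) and -0.32 (SE 0.65). None passed, with adjusted p of 1.00 in astrocytes and 0.814 to 0.937 in neurons (edgeR). The sign of Tet2 turned within the limits in both cell types (0.72 in astrocytes and 0.29 in neurons).

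Mbd3, a subunit of the NuRD chromatin remodelling complex that despite its name binds methylated CpG poorly, ranged from 123 to 223 CPM in the well aligned libraries. It stood at 153, 194, 78.0, 223 and 169 CPM in Eed+/+ and 127, 209, 59.0, 0 and 150 CPM in Eed-/- astrocytes, so 1 Eed-/- library outside the limits held none. Eed+/+ neurons stood at 123 and 40.6 CPM and Eed-/- neurons at 173, 206 and 161 CPM, without overlap and higher in Eed-/- cells; 23.3% of genes did not overlap in either direction. The lower Eed+/+ neuron library was the one outside the limits. The log2 difference was -0.52 (SE 1.31, -3.09 to 2.04) in astrocytes and 1.03 (SE 0.66, -0.40 to 2.46) in neurons, with adjusted p of 1.00 and 0.750 by edgeR and an exact permutation p of 0.2 in neurons. These differences were -0.035 and 0.53 within the limits.

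**Figure D2:**
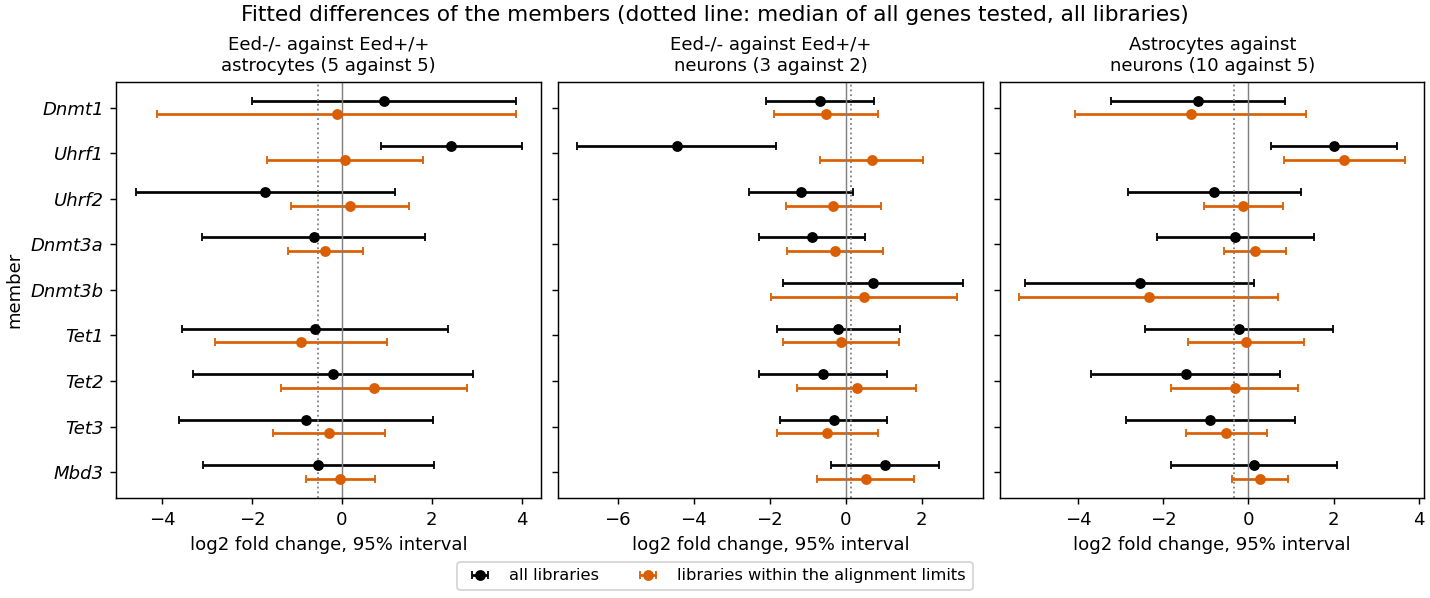
Fitted log2 differences of the members (points) with 95% intervals (bars) for Eed-/- against Eed+/+ astrocytes, Eed-/- against Eed+/+ neurons, and astrocytes against neurons, over all libraries (black) and within the alignment limits (orange). All intervals cross 0 except those of Uhrf1 over all libraries and, between cell types, within the limits; Dnmt3b has no value in the first panel.

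No member was called between genotypes within a cell type. In astrocytes 8 members were tested and 0 passed an adjusted p of 0.05 or of 0.2, the threshold of the study for astrocytes. The background was the same, since 0 of 8956 genes passed either (0%), while 108 had an unadjusted p below 0.05. With DESeq2 over the same libraries 1 gene passed. The study did call genes at 0.2 with DESeq2, most of them lower in Eed-/- astrocytes. It had set aside 5 of its 16 libraries, so its set of libraries differs from the one used here. In neurons 9 members were tested and 0 passed, against 0 of 11862 genes (0%; 862 at an unadjusted p under 0.05, and 26 genes by DESeq2). Of the 8 members tested in astrocytes 2 had a positive log2 difference, with a median of -0.56 against -0.54 over all genes. Within the limits that median was -0.08 and that of all genes -0.02. In neurons 2 of 9 were positive, with a median of -0.60 against 0.15 over all genes and of -0.13 against 0.07 within the limits. In the same comparison neuron markers had a median of 2.11 (8 of 10 positive, 0 passed, 4 at an unadjusted p under 0.05) and of 1.53 within the limits. Oligodendrocyte lineage markers had a median of -0.11 (3 of 8 positive) and of -0.47 within the limits. The part of these markers in the neuron values was not tested. The numbers of the deposited libraries fall into a lower and a higher run, and the neurons all belong to the lower one. Fitted within the lower run (2 Eed+/+ and 3 Eed-/- astrocyte libraries), 1 member, Uhrf1, was called in astrocytes, and within the higher run none. The microglia and erythroid markers given above were high in Eed-/- astrocyte libraries outside the limits, and their part in the astrocyte values was not tested.

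The same held between cell types. Of the 9 members tested, 0 passed, against 2 of 13367 genes (0.015%). Members lay lower in astrocytes more often than not: 2 of 9 log2 differences (astrocytes against neurons) were positive, with a median of -0.80 against -0.34 over all genes tested. Within the limits those medians were -0.13 and -0.16. Dnmt3b had the lowest value, -2.55 (SE 1.37, -5.24 to 0.14), with a range of 0 to 9.95 CPM and a median of 0 over 10 astrocyte libraries and of 3.12 to 16.4 CPM with a median of 6.44 over 5 neuron libraries. Tet2 followed at -1.48 (SE 1.13, -3.69 to 0.74) and Dnmt1 at -1.20 (SE 1.04, -3.24 to 0.85), with medians of 40.1 CPM in astrocytes and 127 CPM in neurons for Dnmt1. Tet3 (-0.89), Uhrf2 (-0.80), Dnmt3a (-0.31), Tet1 (-0.22) and Mbd3 (0.14) lay closer to 0. The adjusted p was 0.928 for Dnmt3b and 1.00 for the other 7 (edgeR). Within the limits Dnmt1 (-1.36) and Dnmt3b (-2.34) kept similar values, Tet2 was at -0.33 and Dnmt3a at 0.16. Exact permutation tests over 10 astrocyte and 5 neuron libraries gave unadjusted two-sided p-values of 0.0366 for Dnmt3b, 0.0286 for Tet2 and 0.101 for Dnmt1, and of 0.114, 0.41 and 0.105 within the limits. Over all libraries proliferation genes summed to 72.7 to 1114 CPM in Eed+/+ and 0 to 1956 CPM in Eed-/- astrocytes. They summed to 871 to 933 CPM in Eed+/+ and 1209 to 1537 CPM in Eed-/- neurons, so the cell types overlapped. The part of proliferation in the Dnmt1 difference was not tested.

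The other genes of the pathway gave no call either. Of the partners of maintenance and de novo methylation (8 genes, such as Hells, Usp7 and Pcna), 7 were tested between cell types, 0 passed and 0 of 7 had a positive log2 difference, with a median of -1.14 against -0.34 over all genes. The smallest unadjusted p was that of Hells, a remodeller that methylation of repeats needs, at -2.60 (SE 1.08, adjusted p 0.676 by edgeR). Its level was 16.1 ± 17.0 CPM (SD, n = 5) in Eed+/+ astrocytes, 24.4 ± 41.5 (SD, n = 5) in Eed-/- astrocytes, 181 ± 168 (SD, n = 2) in Eed+/+ neurons and 81.5 ± 54.3 (SD, n = 3) in Eed-/- neurons. Of the methyl-DNA readers, all 9 were tested between cell types and 0 passed, with a median of -0.96 and 0 of 9 positive. Within the limits that median was -0.59, and Mbd4 (0.68) and Zbtb38 (0.23), named after their values were seen, were positive. Mbd2 had the smallest unadjusted p of the readers (-2.04, SE 1.30, adjusted p 1.00 by edgeR). Of the 10 excision and repair genes, which remove oxidised cytosine and refill the gap, 8 were tested, 0 passed and the smallest unadjusted p was that of the glycosylase Neil1 (-4.27, SE 1.45, adjusted p 0.445 by edgeR). Neil1 was at 0 in all Eed-/- astrocytes, against means of 7.84 CPM in Eed+/+ astrocytes and 14.8 and 19.4 CPM in Eed+/+ and Eed-/- neurons, so that log2 value depends on the prior count. The NuRD subunits other than Mbd3 (11 tested, 0 passed, median -0.53) and the genes of cofactor supply and TET regulation (8 tested, 0 passed, median -0.75) also gave no call. Chd4 of NuRD (-1.40, SE 0.91) and Ahcy, which clears the by-product of methyl transfer (-2.46, SE 1.37), had the smallest unadjusted p of these lists and did not pass. Their values within the limits were -0.64 for Chd4 and -1.16 for Ahcy. Within the limits the medians were -1.32 for the partners, -0.42 for excision and repair, -0.60 for NuRD and -0.19 for cofactor supply, against -0.16 over all genes.

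Between genotypes 0 genes of these 5 lists passed in either cell type. In astrocytes the medians were -0.97 for the partners, -1.12 for the readers, -0.31 for NuRD, -1.16 for excision and repair and -1.02 for cofactor supply, against -0.54 over all genes. Within the limits they were -0.36, 0.04, -0.38, -0.32 and -0.01 against -0.02. The smallest unadjusted p belonged to Lig1 (-1.94) among the partners, Gatad2a (1.56, and -0.79 within the limits) in NuRD, Gadd45a (-2.30) in excision and repair and Cxxc1 (-1.32) in cofactor supply, and none passed. Lig1 was at -1.11, Gadd45a at -1.43 and Cxxc1 at -0.39 within the limits. In neurons the medians were -0.07, -0.42, 0.00, 0.55 and 0.24 against 0.15 over all genes. Within the limits, which leaves out 1 Eed+/+ neuron library, they were 0.36, -0.26, 0.07, 0.43 and 0.20 against 0.07, so the sign of the partners turned. All 8 excision and repair genes tested in neurons had a positive difference over all libraries and none passed, and within the limits Apex1 (-0.10) and Parp1 (-0.08), named after their values were seen, were negative. The smallest unadjusted p belonged to Usp7 (-1.83), Mbd5 (-1.72), Chd3 (-1.42), Gadd45g (1.46) and Ogt, which glycosylates proteins and binds TET enzymes (-2.14, SE 0.70, adjusted p 0.644 by edgeR). Within the limits these 5 genes were at -0.63, -0.78, -0.70, 0.72 and -0.89.

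Uhrf1 is shown apart, since its reads rose where the alignment of the library was poor. Eed+/+ astrocytes gave 562, 1032, 2335, 709 and 2391 reads, or 294, 385, 4335, 327 and 1656 CPM. Eed-/- astrocytes gave 4965, 1554, 3477, 4614 and 350 reads, or 8401, 1033, 10264, 14255 and 354 CPM. Neurons gave 203 and 2130 reads (Eed+/+, 109 and 6648 CPM) and 131, 427 and 333 reads (Eed-/-, 102, 219 and 209.6 CPM). The 5 libraries outside the limits were the 5 highest, at 4335 to 14255 CPM, and the 10 within them held 102 to 1656 CPM, so the ranges did not overlap. Outside the limits Uhrf1 took 0.489% to 2.18% of all gene reads, and within them 0.0104% to 0.147%.

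Those reads came almost entirely from 1 strand, although the libraries carry no strand information. Over the 15 libraries 24020 of the stranded Uhrf1 reads were assigned to the second strand (the counting in which the read lies opposite to the gene) and 1236 to the first, so 95.1% were on the second. The other 8 members had 47.6% to 50.7% there. The share was 96.4% outside the limits (16925 against 628 reads) and 92.1% within them (7095 against 608). Among genes with at least 50 stranded reads, 0.105% (15 of 14344) had at least 90% on the second strand over the 15 libraries. By library the share was lowest in Eed-/- neuron replicates 3 and 1 (70.0% and 70.2%) and highest in Eed+/+ neuron replicate 2 (98.0%). GENCODE places no other gene over Uhrf1, and the source of the reads was not tested.

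**Figure D3:**
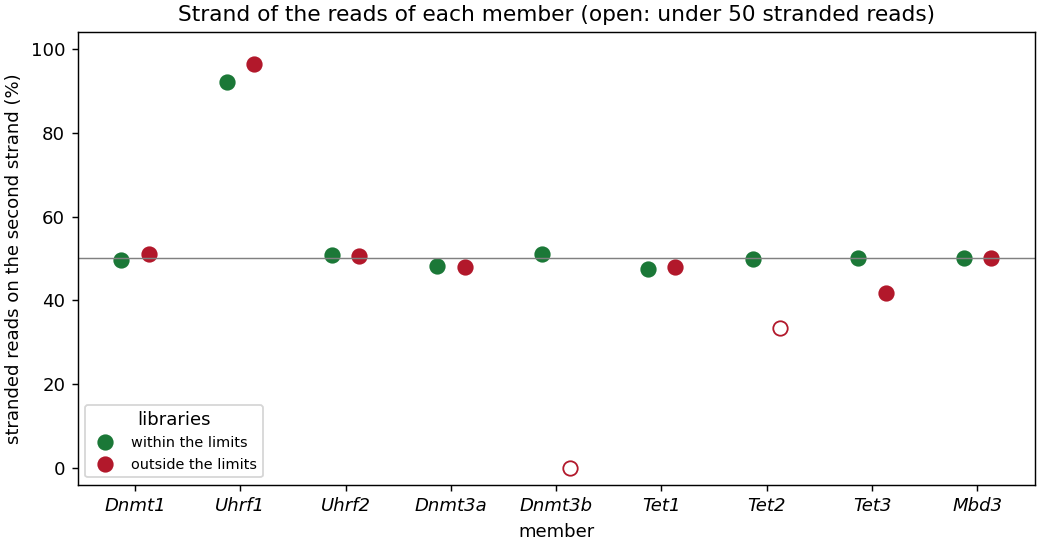
Share of the stranded reads of each member that fell on the second strand (vertical axis, percent), summed over the libraries within the alignment limits (green) and outside them (red); open points rest on under 50 reads. Uhrf1 stands at 92.1% and 96.4%, and the other members with at least 50 reads lie near 50%, Tet3 outside the limits being the lowest at 41.7%.

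**Figure D4:**
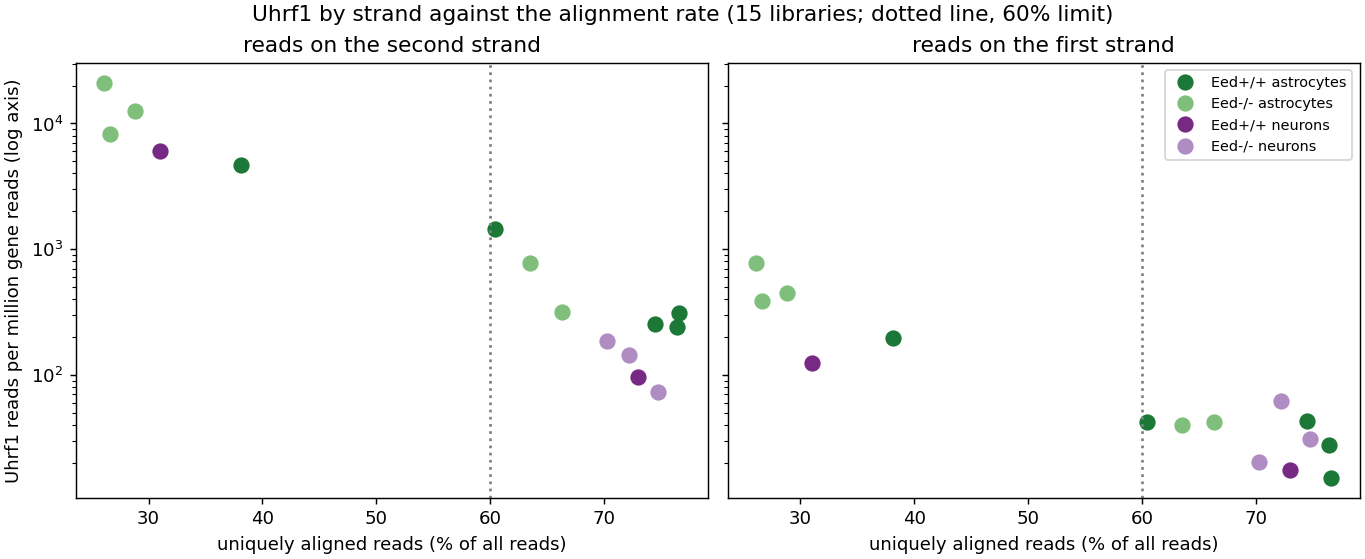
Uhrf1 level from the reads of each strand as CPM without TMM factors (vertical axes, log scale) against the share of uniquely aligned reads (horizontal axes, percent) in the 15 libraries, coloured by group. On the second strand the well aligned neurons lie below all astrocytes within the limits, whereas on the first strand the cell types mix there and both strands are highest in the 5 libraries left of the 60% line.

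The 2 strands gave different comparisons. Within the limits, Uhrf1 of both strands was 675 ± 556 CPM (SD, n = 6) in astrocytes and 160 ± 62.9 (SD, n = 4) in neurons. The 2 least aligned of these astrocyte libraries (60.5% and 63.5%) held 1656 and 1033 CPM and the other 4 held 294 to 385, while the neurons aligned at 70.3% to 74.8%. The 3 Eed+/+ astrocyte libraries that aligned at 74.5% to 76.6% held 294 to 385 CPM, above all 4 neuron libraries. The libraries did not overlap, which held for 3.59% of the genes tested. An exact permutation test gave an unadjusted two-sided p of 0.00952, the smallest that 6 against 4 libraries allow. The edgeR fit within the limits gave a log2 difference of 2.25, which did not pass (adjusted p 0.4999). From first-strand reads alone the levels were 39.4 ± 12.7 CPM (SD, n = 6) and 32.9 ± 20.8 (SD, n = 4), the libraries overlapped (17.9 to 50.5 and 16.6 to 62.9 CPM) and the exact permutation p was 0.552. Over all libraries the fitted difference between cell types was 2.01 (SE 0.75, 0.53 to 3.48, adjusted p 0.546 by edgeR) from both strands and 1.33 (SE 0.94, -0.52 to 3.18) from the first.

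Between genotypes the fitted differences of Uhrf1 had opposite signs in the 2 cell types. In astrocytes, with 3 poorly aligned Eed-/- libraries and 1 Eed+/+, the log2 difference was 2.44 (SE 0.80, 0.88 to 4.00), which did not pass (adjusted p 1.00 by edgeR, and 0.0016 within the lower run, where it was 4.40). In neurons, with 1 poorly aligned Eed+/+ library, it was -4.44 (SE 1.21, -7.06 to -1.83, adjusted p 0.644 by edgeR and 0.0178 by DESeq2). Within the limits the 2 values were 0.07 and 0.68. The difference between them, the interaction of genotype with cell type, was the only call among the members: 6.59 (SE 1.43, 3.78 to 9.39) with an adjusted p of 0.0103 (edgeR), against 7 of 13367 genes called in that test (0.0524%), all 7 higher. The other calls included the erythroid genes Hbb-bs and Hba-a1. Within the limits the interaction was -0.55 (adjusted p 1.00), from first-strand reads 2.73 (adjusted p 1.00) and from second-strand reads 6.80 (adjusted p 0.00128). Without Eed+/+ neuron replicate 2 it was 1.61 (adjusted p 1.00). The adjusted p also rose over 0.05 without Eed+/+ astrocyte replicate 1 (0.0609) or 4 (0.0585), Eed-/- astrocyte replicate 3 (0.0577) or 4 (1.00), and Eed-/- neuron replicate 1 (0.556), 2 (0.212) or 3 (0.161). It was likewise over 0.05 with DESeq2 (0.0831), limma-voom (0.462), no filter on low counts (0.437), the replicate block (0.378) or the lower run alone (0.213). Of the other 8 members none passed this test.

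Across the 15 libraries, which share depth and alignment as a common source of spread, the genes whose log2 level followed Uhrf1 most closely were Gm47542, an unconfirmed transcribed locus on chromosome 9 (Pearson r 0.992), Lipe (0.979) and Trbj1-6 (0.964). Gm47542 had 0.701 to 2.09 reads per Uhrf1 read within the limits and 1.65 to 2.07 outside, and 99.8% to 100.0% of its stranded reads were on the second strand in each library. The levels of Uhrf1 ran against those of all 8 other members, with Pearson r from -0.33 (Dnmt3a) to -0.79 (Dnmt3b). Among the other 8, the highest correlations were those of Dnmt3b with Tet2 (0.73), Dnmt3a with Tet2 (0.72) and Tet1 with Mbd3 (0.70) and Dnmt1 (0.70), and Dnmt1 hardly followed Dnmt3a (0.06). The genes most like Dnmt1 were Rgs2 (0.936), Pik3c2b (0.932) and Mbtd1 (0.921), and those most like Dnmt3a were Etnk1 (0.869), Gnao1 (0.868) and Ppp1r9a (0.866). Dnmt3b was most like Bicdl1 (0.963), Lins1 (0.961) and Yrdc (0.950), and Uhrf2 most like Nvl (0.983), Fchsd2 (0.975) and Cux2 (0.971). Tet1 was followed by Hdac5 (0.921), Hivep1 (0.919) and Smad5 (0.909), Tet2 by Tnik (0.968), Ap1ar (0.965) and Ppwd1 (0.961), and Tet3 by Gpbp1 (0.982), Kmt2e (0.982) and Ptprf (0.980). Mbd3 went with Vapa (0.989), Gnb1 (0.983) and Mlf2 (0.983). Each set holds the 3 largest of 13366 correlations over the same 15 libraries, and the values are a description of these libraries.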

How the data were processed

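The authors sorted cells, made full-length cDNA libraries (Smart-Seq v2, unstranded), aligned reads with STAR to mm10 (GRCm38) and deposited raw read counts per gene, not normalized and not pooled. The unstranded column was used, and the columns of each strand served only the strand values. Lines of read totals were left out. Symbols came from GENCODE mouse release 21 (53274 identifiers matched, 105 did not).

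The test across genes was the quasi-likelihood F test of edgeR (version 4.0.16 in R 4.3.3, with TMM factors, filterByExpr and robust dispersion), with Benjamini-Hochberg adjustment over all genes tested and a threshold of 0.05, within astrocytes, within neurons, and over 15 libraries for the cell type contrast and the interaction. Single values were compared by exact permutation tests (scipy 1.17.1). Alternatives were RLE size factors, DESeq2 1.42.0, limma-voom (limma 3.58.1), other filters, library subsets, a replicate block and single strands. The fits were also run on simulated counts in which all libraries shared 1 expression profile apart from planted changes. Such counts do not cover the poor alignment seen here. Depth ranged from 211736 to 3178529 gene reads, and floors of 3 counts cover counting error only, since no molecular identifiers were used. The study set aside 5 of its 16 libraries, without naming them, so all 15 with a group were kept.

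All 9 members are named. Of every other list the genes past 0.05 are named, or else the gene with the smallest unadjusted p, except 1 that is not reported here. The 3 genes most like each member are named by Pearson r. The members and lists were chosen with earlier results of these data known. The strand and run alternatives were chosen after the data were seen.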

Additional observations from a re-analysis of the deposited data

Results flagged for a closer look

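Dnmt3b in Eed-/- astrocyte replicate 5 (1.01 CPM, 1 read) was picked out by Dixon's gap ratio because the other 4 libraries of its group held 0, where any value above 0 gives a ratio of 1, so the test is void there. The value was below the floor of 3 counts of that library (3.03 CPM). No other of the 18 groups of members passed the ratio, which chance gives in about 1 of 20. The genotype effect on Uhrf1 differed between cell types by 6.59 on the log2 scale in the test of the difference itself (edgeR interaction, adjusted p 0.0103), and the value within the alignment limits was -0.55. In the library without a group, which no comparison used, Uhrf1 had 5294 reads, above the limit of 3 counts. In the strand columns, which lie outside the main counts, 96.4% of the Uhrf1 reads of the 5 libraries outside the limits lay on the second strand, against 92.1% in the 10 within them. The cause of these Uhrf1 values was not tested.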

How the results depend on the processing

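The number of genes called moved with the fit. In astrocytes it was 0 in the fit reported, 1 with DESeq2, 5 with no filter, 24 with a mean count above 10, 46 in 1 fit over 15 libraries, 4 within the lower run, and 0 to 1 leaving out each replicate. In neurons it was 0, and 26 with DESeq2, 127 with no filter, 1 within the limits, 3 in the fit over 15 libraries, and 0 to 2601 leaving out each replicate (where 1 Eed+/+ neuron library was left, it is assumed to vary like the other group). Between cell types the 2 calls became 5 with DESeq2, 1 with a mean count above 10 or second-strand reads, 0 with limma-voom, no filter, the limits, the run as covariate or the lower run alone, and 0 to 5 leaving out each replicate. The 7 interaction calls became 21 with RLE size factors, 2 with no filter or first-strand reads, 0 with limma-voom, the limits or the lower run alone, and 1 to 12 leaving out each replicate. Members called were 1 (Uhrf1) in astrocytes within the lower run, and in neurons 1 (Uhrf1) with DESeq2 or no filter and 0 to 2 leaving out each replicate. For the interaction, where Uhrf1 was called, members called were 0 with DESeq2, limma-voom, no filter, the limits, the replicate block, the lower run or first-strand reads, and 0 to 1 leaving out each replicate.

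Replicate numbers are shared between groups, but the labels tie them to no shared animal or day. Deviations of same-numbered libraries correlated between -0.03 and 0.16 in astrocytes and at -0.115 in neurons, and between -0.046 and 0.068 across cell types of 1 genotype, and in astrocytes 1 of 5 numbers correlated best with itself. With the replicate block, calls were 0 in astrocytes, 0 in neurons, 0 between cell types and 2 for the interaction.

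Signs turned as follows (log2). In astrocytes Dnmt1 was -2.73 with limma-voom and -0.12 within the limits (-0.26 to 1.46 leaving out each replicate), Uhrf2 0.18 within the limits, and Tet2 0.72 within the limits and 0.91 within the higher run (-0.84 to 0.26). In neurons Uhrf1 was 0.68 (-5.36 to 0.68) and Tet2 0.29 (-1.16 to 0.29) within the limits, and Tet1 ranged from -0.72 to 0.19. Between cell types Dnmt3a was 0.16 within the limits, Tet1 0.037 with the run as covariate and 0.10 within the lower run (-0.44 to 0.065), and Mbd3 -0.17 to 0.65. Within the limits the Uhrf1 interaction, which had passed, was -0.55, and the interactions of Uhrf2 (-0.63 to 0.51), Tet3 (-0.64 to 0.21) and Dnmt3a (0.03 to -0.08), which had not, turned too. Causes were not tested. At 3 counts the libraries would have shown 1.12 to 9.36 CPM, which limits low members such as Dnmt3b.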

Other observations

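The library whose labels name both cell types had 221456 gene reads and 17.7% uniquely aligned reads, a lower aligned share than any library with a group. Of the members it held reads of Uhrf1 (5294), Tet3 (121) and Dnmt3a (41), and 0 reads of Dnmt1, Dnmt3b, Uhrf2, Tet1, Tet2 and Mbd3, where 3 counts would have been 13.5 CPM. Uhrf1 took 2.39% of its gene reads, with 97.0% of the stranded reads on the second strand, and Gm47542 had 10537 reads. It held 0 reads of Eed.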
